A study of Mus musculus with 36 samples.

Results

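The cytosolic ribosomal proteins described here were the genes whose symbol is Rpl or Rps followed by a number, together with Rplp0, Rplp1, Rplp2 and Rpsa. The name rule found 81 of the 16614 genes in the deposited table, 49 of the 60S subunit and 32 of the 40S subunit, and every one of them was kept. Their coding sequences were short, with a median of 456 nt (138 to 1257 nt) against 1356 nt for the other genes with a coding model. Fau and Rack1, which also encode proteins of the ribosome, fell outside the name rule and are given beside the members where they were measured.

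The libraries came from whole brains of postnatal day 5 C57BL/6 mice (WT) and FMR1-KO mice, which lack the RNA-binding protein FMRP, with no drug given to either, and each preparation used 10 brains. Ribosomes were separated on a sucrose gradient into the pellet, which holds densely packed ribosome clusters (the RNA granule fraction), and fraction 5/6, which holds lighter ribosome clusters. Ribosome-protected fragments (RPFs), the stretches of mRNA that ribosomes shield from RNase I, were sequenced from both, and RNA-seq was made from the homogenate. There were 36 libraries in 12 groups of 3: pellet, fraction 5/6 and RNA-seq, in WT and KO, in a standard preparation (10 mM MgCl2 and stronger digestion) and a low nuclease preparation (2.5 mM MgCl2). The preparations thus differed in magnesium and in digestion together, and these cannot be told apart. The 3 replicates of each RPF group were pooled after linker ligation for reverse transcription, rRNA depletion and PCR, so group and library pool cannot be told apart either.

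Ribosomal protein mRNAs are among the most abundant of any growing cell, and nearly all belong to the TOP mRNAs, whose transcripts start with a C and a run of pyrimidines. Through that terminal oligopyrimidine (TOP) tract their translation follows the mTORC1 pathway and the RNA-binding protein Larp1. The genes are also known for many processed pseudogenes, intronless copies elsewhere in the genome, so that a short read from one of them often matches several places.

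The start sites of 61 members could be read from RefSeq promoter windows (GRCm38.p6). A C followed by at least 4 pyrimidines at the annotated start was found in 13 of the 61 (21.3%), against 813 of 27025 windows of all genes (3.01%). Within 5 nt of the annotated start, 29 members (47.5%) and 21.2% of all windows held such a run on the transcribed strand. Examples are shown to let the tract be seen, each from 10 nt before the start site, with the pyrimidine run in capitals: Rpl15 and Rpl35 of the 60S subunit, and Rps10 and Rps6 of the 40S subunit, at chr14:18270972-18270996, chr2:39005117-39005141, chr17:27635230-27635254 and chr4:86857353-86857377, all on the minus strand.
Rpl15: agaaagccttCTTCCTTTCCTCTgg
Rpl35: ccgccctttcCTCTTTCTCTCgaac
Rps10: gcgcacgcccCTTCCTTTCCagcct
Rps6: gaagtcgggcCTCTTTTTCgtgacg

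How far a read of RPF length can be placed was measured as the share of 30-base words of each coding sequence that occur once in the genome. The median over the members was 3.42%, and 31 members had no such word at all, whereas the median over 16276 other protein-coding genes was 100%. Under 10% lay 57 of the 81 members, against 2.65% of the other genes. Over 50% were 5 members, among them Rpl4 (59.5%), Rps3 (80%), Rpl8 (88.7%) and Rpl3l (100%). The counts of these could be placed by most of their sequence, so they are given in full beside the rest. Exons were also pooled over all annotated transcripts of each gene, and in 25 members they overlapped an annotated small RNA on the same strand. Among them were Rpl13 (Mir7079 and Snord68), Rps12 (Snora33 and Snord100) and Rpl21, whereas Rpl22 had none.

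Library totals ran from 6765065 to 40174168 counts in the standard RPF libraries, from 23634940 to 62310787 in the low nuclease RPF libraries and from 112249206 to 147216378 in the standard RNA-seq. Cdk8 took 36.7 to 63.4% of the counts of every standard RPF library and 2.69 to 5.62% in the low nuclease ones, so levels are given as CPM, counts scaled to the same library total, here the total without Cdk8. Fmr1 was at 64.6 to 67.8 CPM in the WT pellet and 4.79 to 4.93 CPM in the KO pellet of the standard preparation. In fraction 5/6 the library labelled WT replicate 3 held 3.17 CPM, below every KO library (5.98 to 10.7 CPM), against 100.1 and 68.6 CPM in the other WT ones, and counts and medians that rest on it are given with and without it. In 3 of the 6 low nuclease RNA-seq libraries, 10 genes took 81.5 to 85.0% of the counts. In the standard preparation the summed level of 6 neuronal markers was 7417 to 8160 CPM in WT RNA-seq, and the liver marker in the table was at or below 0.998 CPM.

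The members were abundant in brain RNA and much scarcer among the footprints. Summed over the 81 members, WT RNA-seq libraries held 42383, 23644 and 20753 CPM and KO libraries 23006, 27267 and 22801 CPM. WT replicate 1 stood apart, at nearly the sum of the other WT libraries together. The WT pellet held 3706, 4582 and 1948 CPM and the KO pellet 4927, 2267 and 3566 CPM. Fraction 5/6 held 5069, 4609 and 2479 CPM in WT and 3194, 3744 and 7230 CPM in KO, where the highest value was that of KO replicate 3, the library with the lowest total count. No footprint library of the standard preparation reached the lowest RNA-seq library.

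Much of the variation in the standard pellet sums came from Rpl22, a 60S protein that is not needed for protein synthesis as such and binds RNA. Rpl22 (chr4:152325742-152334071) was at 1242, 1221 and 6.04 CPM in the WT pellet and 1973, 158.4 and 976.1 CPM in the KO pellet. In fraction 5/6 it was at 841.1, 1845 and 10.2 CPM in WT and 21.1, 371.6 and 887.4 CPM in KO. Its RNA-seq level was even, from 139.9 to 199.7 CPM over the standard libraries of both genotypes. The pellet library labelled WT replicate 3 and the fraction 5/6 libraries labelled WT replicate 3 and KO replicate 1 thus held far less Rpl22 than the other libraries, and Rpl22 made up 0.310 to 40.0% of the member sum. Without it (an alternative chosen after seeing the data) the sums were 2464, 3362 and 1942 CPM in the WT pellet and 2954, 2108 and 2590 CPM in the KO pellet, and the genotypes overlapped. In fraction 5/6 they were 4228, 2764 and 2469 CPM in WT and 3173, 3373 and 6342 CPM in KO. There the SD only went from 1382 to 942 CPM in WT and from 2188 to 1775 CPM in KO.

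**Figure D1:**
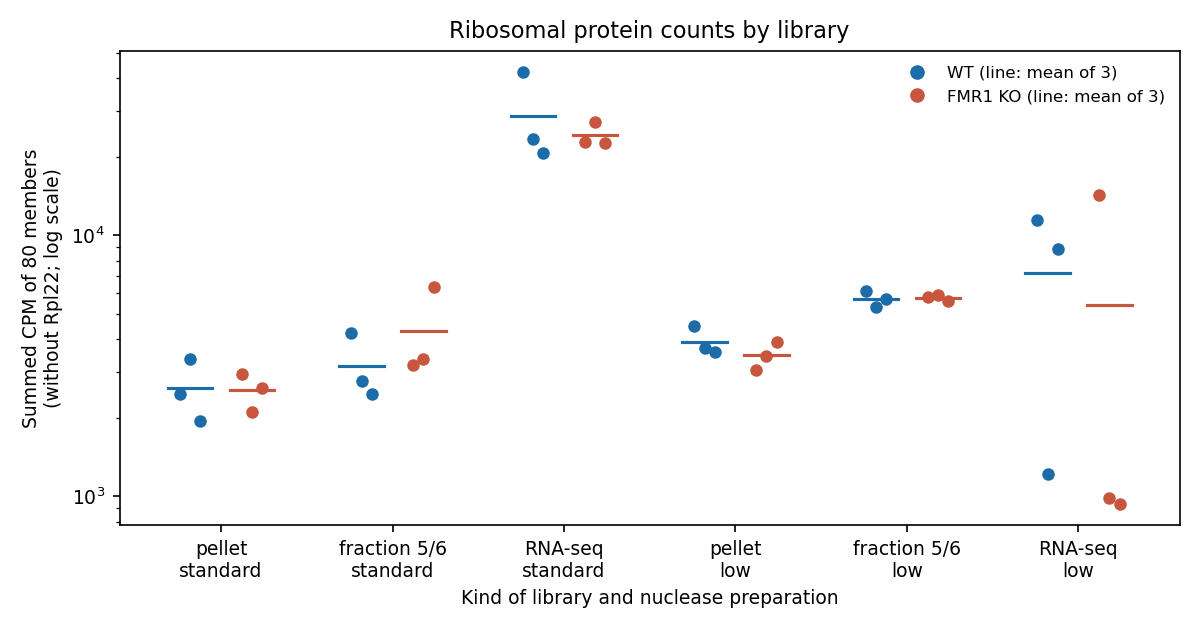
Summed level of the members without Rpl22, in CPM without Cdk8 on a log axis, for each library of pellet, fraction 5/6 and RNA-seq in both preparations. Points are libraries, coloured by genotype, and lines are means of 3. The standard RNA-seq libraries lie above every footprint library, and the genotypes overlap in each standard kind of library.

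The low nuclease preparation gave steadier footprint sums. The WT pellet held 4538, 3719 and 3603 CPM and the KO pellet 3080, 3478 and 3935 CPM, with fraction 5/6 at 6171, 5353 and 5752 CPM in WT and 5853, 5936 and 5636 CPM in KO. Every fraction 5/6 library lay above every pellet library. The sum of 60S over 40S members, without Rpl22, was 1.65 to 2.2 in the standard footprint libraries, 1.74 to 2.1 in the low nuclease ones and 1.30 to 1.41 in standard RNA-seq. The RNA-seq of the low nuclease preparation ran from 944.1 to 14420 CPM, the lowest values being those of the libraries dominated by 10 genes.

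Per kilobase of coding length, the highest members in the WT pellet after Rpl22 (2143 ± 1843 CPM per kb, SD, n = 3) included those with mostly unique sequence. Rpl8 stood at 273 ± 89.9, Rpl4 at 237 ± 53.9 and Rps3 at 187 ± 54.2 CPM per kb, neighbours that did not differ beyond their spread. The member median was 44.0 CPM per kb in the WT pellet and 43.1 in the KO pellet, against 649 and 560 CPM per kb in RNA-seq. Lowest among the 80 members with at least 10 counts in each WT pellet library were Rps12 (22.5 ± 9.19), Rpl7l1 (18.6 ± 4.60), Rpl22l1 (16.1 ± 6.90), Rpl3l (9.49 ± 4.47) and Rps27l (5.95 ± 2.73). Apart from Rps12, a protein of the 40S head, these are paralogs of the main subunits' genes.

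Occupancy, the RPF level of the pellet relative to RNA-seq, was far below the average gene for nearly all members. In WT, 76 of 81 members were lower, 1 was higher and 4 did not pass (edgeR quasi-likelihood test, Benjamini-Hochberg adjusted p under 0.05 over 16146 genes), and the member median was -2.55 on the log2 scale against -0.11 over all genes tested. Many genes were called in this comparison, where 34.3% of all genes tested were lower and 31.2% higher. In KO, 77 members were lower and 2 higher, with a median of -2.43, where 35.2% of genes were called lower and 31.9% higher. The 60S and 40S medians were -2.41 and -2.67 in WT and -2.19 and -2.67 in KO. WT and KO occupancy come from separate libraries.

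The lowest values included those of the shortest coding sequences. Rpl39, an X-linked 60S protein of the exit tunnel rim (chrX:37082520-37085402), was at 215.4, 94.2 and 100.9 CPM in WT RNA-seq and 0.423, 0.327 and 0.168 CPM in the WT pellet. It had only 2 to 9 counts in a pellet library, all RNA-seq libraries lay far above all pellet libraries, and the log2 occupancy was -7.56 (SE 0.51, edgeR adjusted p 1.57e-05) in WT and -6.81 (SE 0.21, adjusted p 5.32e-06) in KO. Rpl41, the shortest protein of the ribosome, was at 1204, 728.0 and 509.6 CPM in WT RNA-seq and 5.97, 8.02 and 3.86 CPM in the pellet, an occupancy of -5.97 in WT and -5.53 in KO. Rps12 followed with -4.84 and -4.57, then Rps29 with -4.54 and -4.16 and Rpl37a with -4.39 and -4.47, zinc-binding proteins of the 40S and 60S subunit.

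The stalk recruits the GTPases of translation to the 60S subunit, and all 4 of its genes were lower in both genotypes. Rplp0, its base, was at 1909, 955.6 and 770.2 CPM in WT RNA-seq and 46.4, 60.2 and 33.1 CPM in the WT pellet, an occupancy of -3.57 (SE 0.39, edgeR adjusted p 0.000141). Rplp1 stood at -3.96, Rplp2 at -3.21 and Rpl12 at -3.45 in WT, and at -3.99, -2.84 and -2.93 in KO. The 7 members of the exit tunnel rim were all lower (median -3.42 in WT). Of the 14 members of the 40S head, 13 were lower in WT and 14 in KO.

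Rpsa, the 40S protein also known as the laminin receptor precursor, was at 2163, 1146 and 1008 CPM in WT RNA-seq against 47.1, 52.7 and 33.6 CPM in the pellet, an occupancy of -3.88 (SE 0.34, edgeR adjusted p 4.97e-05). Rps6, the substrate of S6 kinase and a common ribosome marker, fell less, with 264, 154.9 and 144.0 CPM in RNA-seq and 20.9, 22.0 and 17.2 CPM in the pellet, an occupancy of -2.08 in WT and -2.02 in KO. Rpl5 and Rpl11, which carry the 5S rRNA into the 60S subunit and bind Mdm2, stood at -1.60 and -2.41 in WT. The X-linked Rps4x, Rpl10 and Rpl36a stood at -2.76, -2.12 and -2.20. Rps27a, made as a fusion with ubiquitin, stood at -1.65. Among the paralogs, Rpl7l1 was at -0.75 where Rpl7 was at -1.97, Rpl22l1 at -1.96, and Rps27l at -2.28 where Rps27 was at -3.38. Outside the name rule, Fau stood at -2.90, and Rack1, a scaffold on the 40S head whose coding words are 94.8% unique, at 0.52 (adjusted p 0.0723).

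Rpl4, Rpl8 and Rps3, which could be placed by most of their sequence, did not share this depth. Rpl4, a long 60S protein that lines the exit tunnel (chr9:64173375-64178666), was at 1111, 645.7 and 606.8 CPM in WT RNA-seq and 285.9, 370.4 and 236.4 CPM in the WT pellet, an occupancy of -0.27 (SE 0.26, edgeR adjusted p 0.389) in WT and -0.28 (SE 0.14, adjusted p 0.117) in KO. Rpl8 (chr15:76904078-76906314), at 699.6, 508.3 and 445.5 CPM in RNA-seq and 210.6, 280.1 and 141.4 CPM in the pellet, stood at -0.26 (SE 0.25) in WT and -0.23 (SE 0.13) in KO, and passed in neither. Rps3, a 40S protein at the mRNA entry (chr7:99477896-99483738), was at -0.46 (SE 0.24, adjusted p 0.127) in WT and -0.56 (SE 0.11, adjusted p 0.00346) in KO.

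Rpl3l, also mostly unique, is the striated muscle paralog of Rpl3 (chr17:24727820-24736143). It was all but absent from RNA-seq, at 0.383, 0.210 and 0.179 CPM in WT, and was higher in the pellet at 17.9, 7.93 and 8.97 CPM, an occupancy of 6.67 (SE 0.49, edgeR adjusted p 2.32e-05) in WT and 8.16 (SE 0.56) in KO. Rpl3 itself stood at -1.24 and -1.06. The other member called higher was Rpl22, at 3.63 (SE 0.73, adjusted p 0.00385) in KO, beside 3.45 (SE 1.36, adjusted p 0.0557) in WT, where the pellet library at 6.04 CPM lay below all RNA-seq libraries. On the CPM scale the KO pellet library of replicate 2, at 158.4 CPM, lay within the range of the standard RNA-seq libraries. In the low nuclease libraries Rpl22 in KO was at -0.72.

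Grouped by the share of unique words, members and other genes were low together. In WT the members with no unique word had a median occupancy of -2.71 (31 genes, all called lower), and the 177 other genes of that class had -2.57. With more than 0 and up to 10% unique words the medians were -2.62 for 26 members, all lower, and -1.52 for 245 other genes, and between 10 and 50% they were -2.32 for 19 members and -1.15 for 671 other genes. Above 50% the 5 members had -0.27 and the 14766 other genes -0.02. In KO the member medians from the least to the most unique class were -2.75, -2.53, -2.40 and -0.28, beside -2.65, -1.36, -1.18 and 0.01 for other genes. In the middle classes the member medians thus lay below those of other genes.

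**Figure D2:**
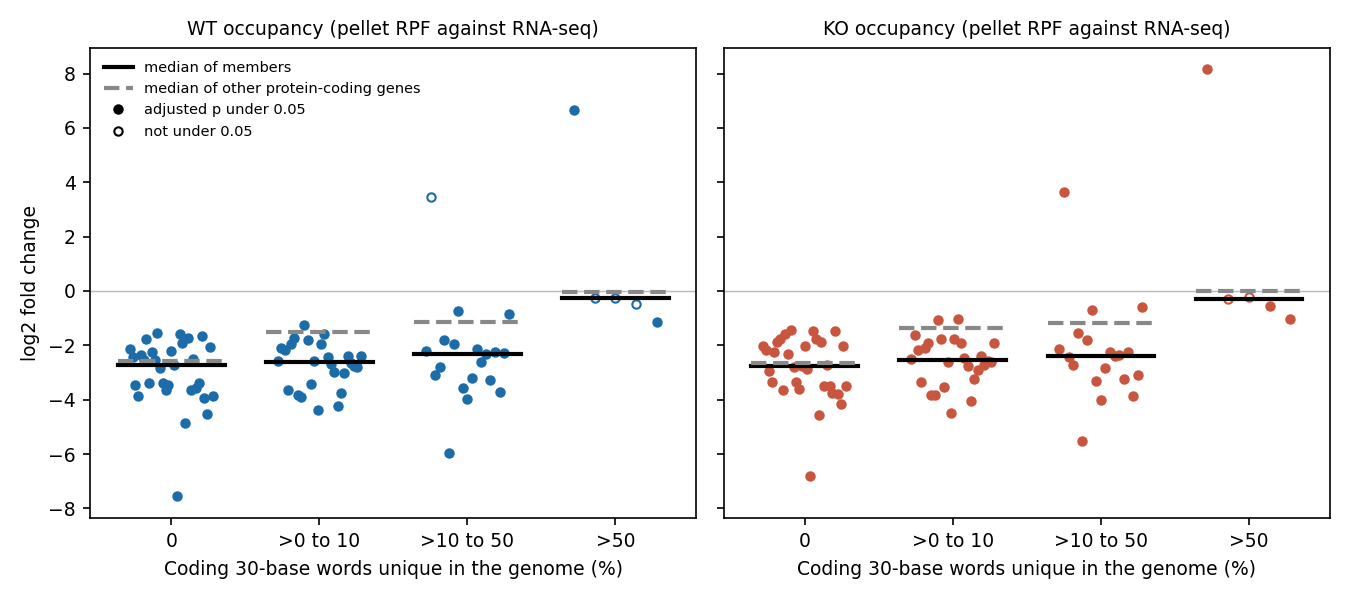
Occupancy of each member (log2 of pellet RPF over RNA-seq, edgeR) by the share of its 30-base coding words that occur once in the genome, in WT and KO. Filled points passed an adjusted p of 0.05, solid lines are member medians and dashed lines the medians of other protein-coding genes. Members with no unique word lie around -2.71 in WT and the 5 with over 50% around -0.27.

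Length and exon structure moved with occupancy as well. Over the 81 members, Spearman's rho of occupancy with the share of unique words was 0.28 in WT and 0.24 in KO, with coding length 0.43 and 0.49, and with the number of coding exon junctions 0.47 and 0.50, a description across genes that share libraries. In WT the 10 members of up to 300 nt had a median of -3.65, the 47 of over 300 and up to 600 nt -2.69, the 20 of over 600 and up to 900 nt -2.1 and the 4 longer ones -0.76. Other genes went from -1.33 in the shortest class to -0.60 between 600 and 900 nt and 0.36 above 1500 nt. Their parts in the occupancy of the members were not tested.

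Other TOP mRNAs had a lower median where fewer of their words were unique, with exceptions on both sides. The 7 of 19 listed with over 50% unique words, translation factors and Rack1 among them, had a median occupancy of -0.01 in WT (-0.94 to 0.58) and 0.04 in KO, and the 12 with less had -1.32 (-3.30 to 0.52) and -1.37. Eef2, the elongation factor of translocation, stood at 0.58 with 68.6% unique words, and Tpt1, a classical TOP mRNA with none, at -3.30. Of the 7, 2 were higher and 1 lower in WT, the lower being Eef1b2 at -0.94 with 75.4% unique words. Of the 12, 8 were lower and 1 higher (Nap1l1, at 0.38 with 10.4% unique words), and Hnrnpa1, with no unique word, stood at -0.14 (edgeR adjusted p 0.497). Of 10 regulators of TOP translation, such as Mtor and Larp1, 5 were higher and 3 lower in WT. Of 18 ribosome assembly factors 14 were higher and none lower (median 1.00). The 78 mitochondrial ribosomal proteins, with a median coding length of 582 nt, split into 21 higher and 31 lower (median -0.14).

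Most members were also low in fraction 5/6. In WT 73 members were lower and 1 higher (Rpl3l, at 7.25) relative to RNA-seq (median -2.40), where 31.3% of all genes were lower and 24.7% higher. Without the WT library of low Fmr1 the counts were 71 lower and 2 higher with a median of -2.06. In KO 74 were lower and 2 higher (median -1.84), where 33.1% of all genes were lower and 29.8% higher, and without KO replicate 3 the median was -2.0. The higher ones in KO were Rpl3l, at 6.28, and Rpl8, at 0.35 (SE 0.13, edgeR adjusted p 0.042). The Rpl8 call was lost with the replicate block, by library size, and on leaving out any KO fraction 5/6 library. It was also lost without KO RNA replicate 1 or 3. By uniqueness the KO medians went from -1.99 for members with no unique word to 0.24 for those with over 50%.

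The positions of the footprints were read from the peaks of RPF density that were called in each of the 12 standard RPF libraries. Members held 144 to 207 peaks per library, on 57 to 73 members, which was 0.568 to 1.51% of all peaks. The median height of a member's peak was 20 to 42 reads against 14 to 16 for all peaks, and 95.0 to 98.7% of member peaks lay in coding sequence. Only Rpl22l1, Rpl39, Rpl3l and Rps27l never had a peak, and 46 members had one in all 12 libraries (47 in all 11 without the fraction 5/6 library of low Fmr1 labelled WT). Rpl22, for all its counts, had a peak in 1 library.

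Most member peaks held an exon junction, but not those of the most unique members. Between 58.3 and 73.3% of the coding peaks of the members held an exon junction with at least 3 bases on either side (median over libraries 68.2%, highest 72.8% without that fraction 5/6 library), whereas 21.1 to 29.7% of all windows of the same widths along the same coding sequences did. The members with over 50% unique words had 2 to 16 coding peaks in a library, and 1 to 3 of these held a junction. Over the 12 libraries, which share positions, that was 20 of 93 peaks, where 17.3 to 41.6% of windows of the same widths on these genes held one. Other genes with under 10% unique words stood near the members as a whole, at 52.4 to 61.4% against 21.7 to 25.3% of windows. In other genes with over 50% unique words the shares were 12.5 to 15.9% and 13.2 to 15.5%, and overlapped. A read across a junction is spliced in the gene itself but continuous in an intronless copy, and the handling of reads with several alignments was not given in the sources used here. Its part in the peak positions was not tested.

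**Figure D3:**
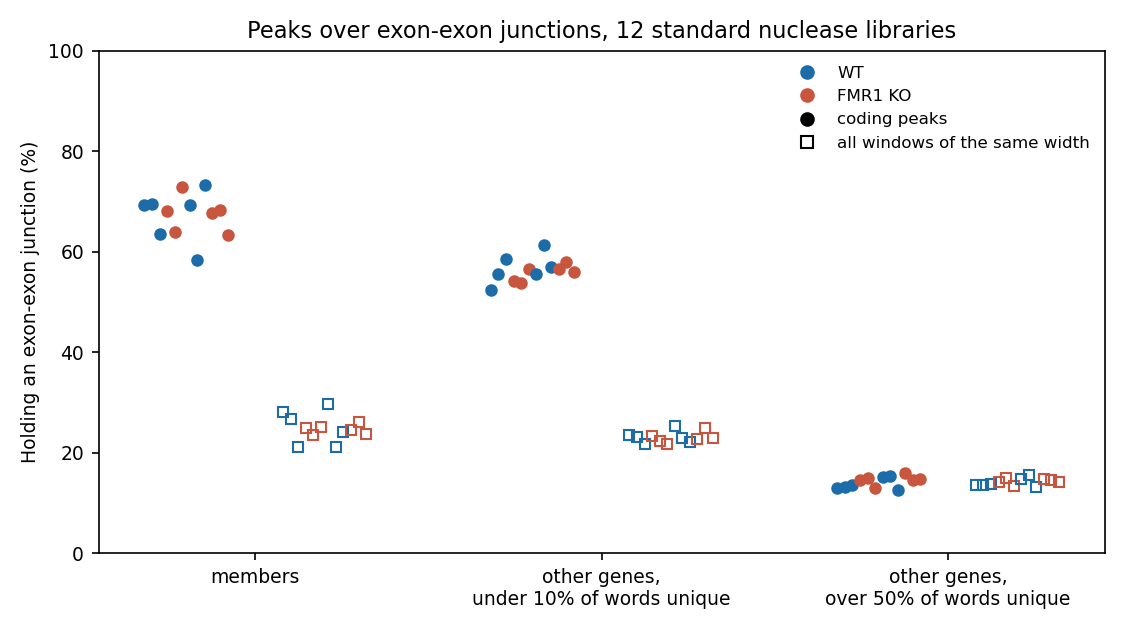
Percent of coding peaks that hold an exon junction in each of the 12 standard RPF libraries, for members, other genes with under 10% and other genes with over 50% unique 30-base words, beside the percent of all windows of the same widths. For the members every library lies above 58%, against windows below 30%.

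Within 6 nt, 32 positions on 26 members had a peak in all 6 pellet libraries, and 11 positions on 10 members had one in all 12 libraries (13 positions without the fraction 5/6 library of low Fmr1). Of the 32, 24 lay within 7 nt of a junction. The other 8 were on Rpl7a, Rpl11, Rpl35, Rps3, Rpl24, Rpl14 and Rpl37a: 5 lay within the first 9 codons, and the remaining 3, on Rps3, Rpl7a and Rpl14, over words that are unique in the genome. For those 5 the nearest junction lay shortly before the centre, at -15 to -10 nt. For the remaining 3 it lay at -75 to -62 nt. Requiring the same nucleotide left 1 position in the pellet libraries and 0 in all 12, and allowing 12 nt gave 61 and 32.

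The 30 bases around the centre of recurrent peaks are shown so that the junction can be seen, with the bases after the junction in capitals. Rpl6, Rpl3, Rpl15 and Rpl5 are 60S proteins and Rpsa is a 40S protein, and the Rps3 stretch, which holds no junction and only unique words, is shown for contrast. In GRCm38 the parts of each are chr5:121205651-121205663 and chr5:121205754-121205770 (plus strand, Rpl6), chr15:80081615-80081628 and chr15:80081016-80081031 (minus, Rpl3), chr9:120128609-120128622 and chr9:120129158-120129173 (plus, Rpsa), chr14:18270279-18270293 and chr14:18270029-18270043 (minus, Rpl15), chr5:107907265-107907277 and chr5:107907897-107907913 (plus, Rpl5), and chr7:99479381-99479410 (minus, Rps3).
Rpl6: tgccaagaccaagGTTGAGAAGAAGAAGAA
Rpl3: ttctataagaactgGCACAAGTCTAAGAAG
Rpsa: aaggaaaagtgacgGTATCTACATCATAAA
Rpl15: acaaggctaagcaagGCTATGTCATTTACA
Rpl5: tgaagaagaagagGTGGAATCGTCCCAAAA
Rps3: ccaagaagcctctgcctgatcatgtgagca

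The heights at these positions, in reads, ran from 49 to 211 for Rpl6 (median 82), from 39 to 139 for Rpl3 (median 60), from 31 to 96 for Rpsa (median 49.5) and from 26 to 105 for Rpl15 (median 42.5) over the libraries. Rpl5 ran from 19 to 86. The Rps3 position, present in 10 libraries, ran from 38 to 145 (median 60.5), within the range of the junction positions. Rps3 had 2 to 7 peaks in each of the 12 libraries and Rpl4 had peaks in 11, whereas Rpl8 had peaks in 3.

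Enrichment is the RPF level of the pellet relative to fraction 5/6, and its member median was below 0 in both preparations. In the standard preparation, WT members gave no call (0 of 80 tested, median -0.25, edgeR), where 0.023% of all genes were called, and DESeq2 called 0. An unadjusted p under 0.05 was held by 2 members, Rpl6 at -2.23 (SE 0.84) and Rplp2 at -0.69 (SE 0.24), and by 6.13% of all genes. Leaving out the fraction 5/6 library labelled WT replicate 3 gave 6 calls and a median of -0.47, with 2 members higher, among them Rpl13 at 1.14, and Rpl15, Rpl32, Rpl5 and Rps6 lower at -0.76, -1.02, -0.57 and -0.87. In KO 10 members were lower and 0 higher (median -0.51), where 2.4% of all genes were lower and 9.11% higher, and without KO fraction 5/6 replicate 3 there were 0 calls at a median of -0.35. Among the members with the largest falls in KO whose libraries did not overlap were Rpl34 at -0.82 (SE 0.18, edgeR adjusted p 0.0351), Rps13 at -0.72, Rps3a1 at -0.70 and Rpl19 at -0.62, proteins of both subunits.

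In the low nuclease preparation the members were depleted from the pellet relative to fraction 5/6 in both genotypes. In WT 53 of 81 were lower and 0 higher (median -0.55 against -0.02 over all genes), where 8.59% of all genes were lower and 14.3% higher. In KO 59 were lower and 0 higher (median -0.69 against -0.04), where 11.8% of all genes were lower and 8.82% higher. The pellet and fraction libraries did not overlap for 62 members in WT (47.2% of all genes) and 68 in KO (44% of all genes). By subunit, 31 of 49 60S members fell in each genotype, and 22 and 28 of 32 40S members.

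Leaving out 1 library kept the medians and lost many calls. The WT median stayed between -0.46 and -0.61 and the KO median between -0.61 and -0.80. The WT count was 13 without pellet replicate 2 or fraction 5/6 replicate 1, 11 without pellet replicate 1, 6 without pellet replicate 3, and 31 and 29 without fraction replicates 2 and 3. The KO count was 32, 5 and 55 without pellet replicates 1, 2 and 3, and 1, 6 and 0 without fraction replicates 1, 2 and 3.

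Several of the shortest members were among the largest falls in the low nuclease pellet. Rpl37, a zinc-binding 60S protein, was at 24.2, 23.9 and 27.7 CPM in the WT pellet and 70.3, 42.1 and 49.5 CPM in fraction 5/6, without overlap, a log2 enrichment of -0.99 (SE 0.23, edgeR adjusted p 0.0305). Rps29 was at 15.3, 7.46 and 10.7 CPM in the WT pellet and 23.7, 20.3 and 20.3 CPM in fraction 5/6, an enrichment of -0.85 (SE 0.23) in WT and -1.11 (SE 0.22) in KO. The other largest falls in WT were Rpl22l1 at -0.98, Rps24 at -0.80 and Rpl7 at -0.80 (SE 0.10, adjusted p 0.00902).

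In KO the largest fall was that of Rpl38, a small 60S protein, at 9.23, 10.6 and 15.6 CPM in the pellet and 30.6, 29.9 and 32.9 CPM in fraction 5/6, an enrichment of -1.22 (SE 0.19, edgeR adjusted p 0.0153). Rplp1 of the stalk stood at -1.18 (SE 0.17), Rps21 at -1.15 and Rpl36 at -1.11. In WT Rplp1 was at -0.55, and the difference between genotypes in this preparation was not tested. Rplp0 stood at -0.43 in WT and -0.50 in KO, Rplp2 at -0.62 and -1.07, and Rpl12, the stalk gene that did not pass, at -0.52 (adjusted p 0.121) and -0.65 (adjusted p 0.0571).

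Rps6 was at 32.4, 26.7 and 26.8 CPM in the WT low nuclease pellet and 47.8, 44.6 and 50.4 CPM in fraction 5/6, an enrichment of -0.62 (edgeR adjusted p 0.011), and at -0.66 in KO. Rpl11 stood at -0.61 and -0.79, whereas its partner Rpl5 was at -0.20 (adjusted p 0.262) and -0.11 (adjusted p 0.605). Rpsa was likewise not called, at -0.20 and -0.10. Rpl13, a 60S protein whose gene hosts Snord68, went the other way without passing, at 0.86 (adjusted p 0.0859; DESeq2 adjusted p 0.0125) in WT and 0.39 in KO.

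Members with mostly unique sequence were lower here too, in contrast to their occupancy. Rpl4 was at 374.8, 377.5 and 345.2 CPM in the WT pellet and 559.0, 560.2 and 625.4 CPM in fraction 5/6, an enrichment of -0.55 (edgeR adjusted p 0.0383) in WT and -0.36 (adjusted p 0.0786) in KO. Rpl8, at 228.5, 202.4 and 192.8 CPM against 334.1, 299.2 and 351.5 CPM in WT, stood at -0.55 (adjusted p 0.0306) and -0.69 (adjusted p 0.0251). Rps3 stood at -0.48 (adjusted p 0.0303) and -0.56 (adjusted p 0.0273). In all of these the WT libraries of pellet and fraction did not overlap. The median of the 5 most unique members was -0.48 in WT and -0.61 in KO.

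Short mRNAs in general were lower in the pellet. Members of up to 300 nt had a median enrichment of -0.71 in WT and -0.98 in KO, those up to 600 nt -0.57 and -0.76, those up to 900 nt -0.46 and -0.56, and the 4 longer ones -0.45 and -0.47. Other genes of these lengths had -0.41 and -0.63, then -0.35 and -0.52, then -0.23 and -0.33, then -0.08 and -0.12, and above 1500 nt 0.26 in both. The member medians were thus below those of other genes in every length class they fill, and the part that length has in their enrichment was not tested. Over the 81 members rho with coding length was 0.41 in WT and 0.55 in KO.

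**Figure D4:**
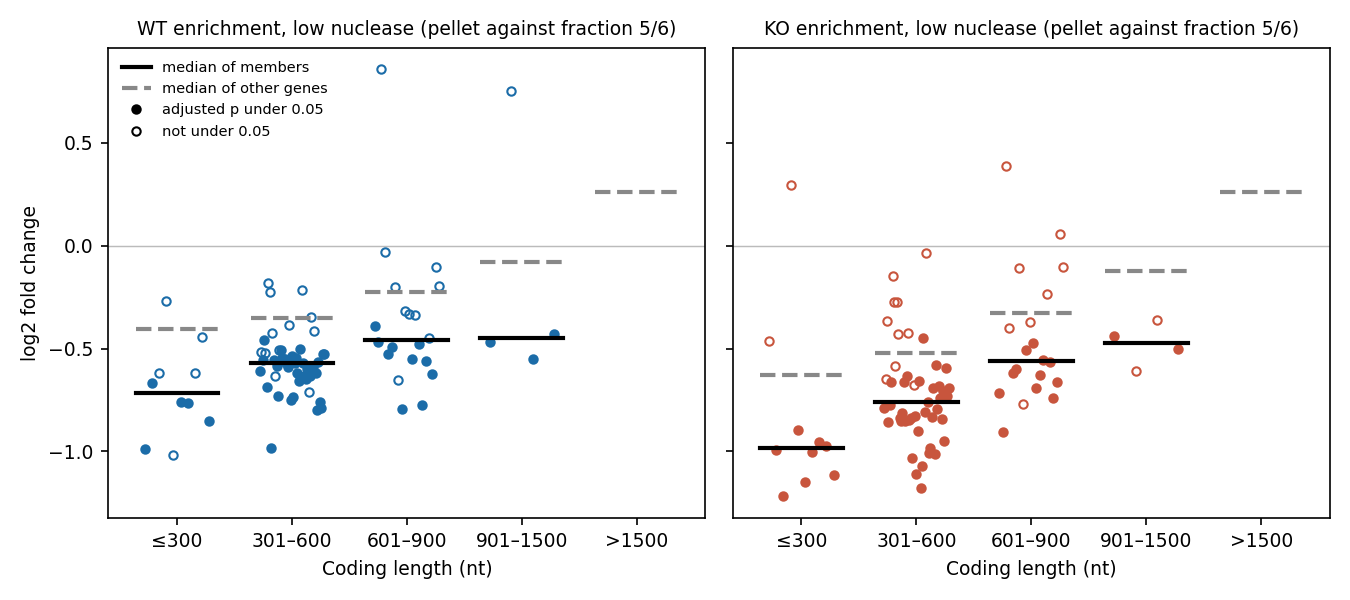
Enrichment in the low nuclease preparation (log2 of pellet over fraction 5/6 RPF, edgeR) of each member by class of coding length, in WT and KO. Filled points passed an adjusted p of 0.05, solid lines are member medians and dashed lines medians of other protein-coding genes, which run from -0.41 to 0.26 in WT from the shortest to the longest class.

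Mitochondrial ribosomal proteins were lower in 25 of 78 cases in WT and 52 in KO, with medians of -0.42 and -0.58. Of the 19 other TOP mRNAs, 11 were lower and 1 higher in WT and 5 lower and 1 higher in KO, with WT medians of -0.48 for those with over 50% unique words and -0.53 for the rest. Rack1 stood at -0.23 (edgeR adjusted p 0.231) in WT and -0.34 in KO. Among 18 assembly factors, 6 were lower in WT and 4 in KO.

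Between the preparations, Rpl22, Rpl13, Rpl39, Rps12 and Rpl21 changed most in the pellet. In WT, 5 members were higher and 12 lower in the standard than in the low nuclease pellet (edgeR, median -0.01), where 15% of all genes were higher and 23.8% lower. In KO, 8 were higher and 6 lower (median 0.04), where 7.35% were higher and 9.36% lower. The WT calls thus fell below the share of all genes in both directions. The WT count of 17 became 6 without low nuclease or standard replicate 1, 10 and 9 without low nuclease replicates 2 and 3, and 26 without standard replicate 3. The KO count of 14 became 3 without low nuclease replicate 2 or standard replicate 1, 4 without low nuclease replicate 3, and 7 and 9 without standard replicates 2 and 3. These directions are relative to the TMM scaling. Scaled by library size, in which Cdk8 counts, the median of all genes moved to -1.38 in WT and -1.61 in KO, and 77 members were lower and 1 higher in WT, and 74 lower and 1 higher in KO.

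Rpl22 rose most, from 43.1, 29.5 and 41.2 CPM in the WT low nuclease pellet to the uneven standard levels given above, a log2 difference of 4.93 (SE 1.57, edgeR adjusted p 0.0488) in WT, where the libraries overlapped, and 5.41 (SE 0.87, adjusted p 0.0158) in KO. The WT call was lost without low nuclease replicate 1, 2 or 3, without standard replicate 1 or 2, with the replicate block and with no filter on low counts. Leaving out KO low nuclease replicate 2 or 3 raised the KO edgeR adjusted p to 0.0645 and 0.0632, and the KO call was also lost with the replicate block. Rpl13 fell most, from 273.1, 284.2 and 145.6 CPM to 16.3, 24.4 and 15.6 CPM in WT, a difference of -3.13 (SE 0.29, adjusted p 0.00163), and of -2.24 (SE 0.51, adjusted p 0.036) in KO. The KO call was lost without low nuclease replicate 2 or 3 or standard replicate 1 (edgeR adjusted p 0.0772, 0.0926 and 0.114) and with the replicate block (0.0538).

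Rps12 went from 67.2, 49.1 and 51.5 CPM to 7.29, 13.1 and 6.37 CPM in WT, a difference of -2.14 (edgeR adjusted p 0.00281), and of -2.06 in KO. Rpl21, a 60S protein that also hosts small RNAs, went from 70.0, 49.9 and 48.0 CPM to 8.93, 15.8 and 9.06 CPM, or -1.80 in WT and -1.84 in KO. Rpl39 stood at -2.88 and -2.01, and its KO call was lost in the same fits as that of Rpl13 (adjusted p 0.0581 to 0.0737). Each of these was lower in every standard library. Exons of Rpl13, Rps12 and Rpl21, pooled over all their annotated transcripts, overlap small RNA genes. Whether the main transcript does, and the part of such RNAs in their counts, was not tested.

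Rps9, a 40S protein near the mRNA entry, was among the members that rose, from 89.1, 74.4 and 75.1 CPM to 104.5, 131.0 and 69.3 CPM in WT, a difference of 0.87 (edgeR adjusted p 0.0146), and of 1.03 in KO. On the CPM scale these libraries overlap, and the direction changed with the scaling, to -0.45 in WT and -0.63 in KO by library size. Rps24, with 0.82 and 0.90, changed direction in the same way, to -0.49 and -0.76. The remaining 2 of the 5 members higher in WT were Rpl18 at 0.60 and Rpl37 at 0.38, which went to -0.71 and -0.94. The WT calls of Rps24, Rpl18 and Rpl37 were each lost on leaving out any 1 library other than standard replicate 3, the KO call of Rps24 on leaving out any library, and the KO call of Rps9 without low nuclease replicate 2 or 3 or standard replicate 1. With the replicate block the WT calls of Rps24, Rpl18 and Rpl37 and the KO calls of Rps24 and Rps9 were lost too.

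**Figure D5:**
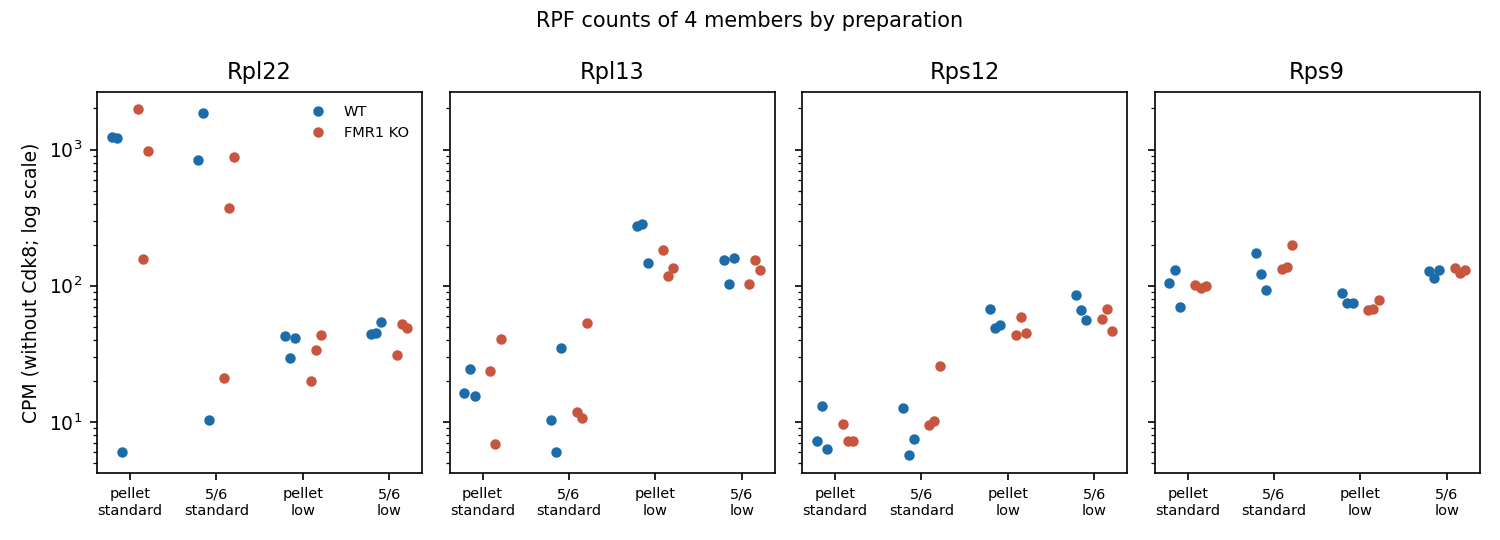
Levels of Rpl22, Rpl13, Rps12 and Rps9 in each RPF library of the pellet and fraction 5/6, in CPM without Cdk8 on a log axis, for the standard and low nuclease preparations of WT and KO. Rpl22 spreads from 6.04 to 1973 CPM in the standard pellet and stays between 19.8 and 43.4 CPM in the low nuclease pellet, whereas Rpl13 and Rps12 are lower in the standard pellet.

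No member was called between the genotypes. In the 7 comparisons of KO with WT, edgeR called 0 members in RNA-seq, pellet, fraction 5/6, low nuclease pellet, low nuclease fraction 5/6, and the interactions for occupancy and enrichment, where 0.0736, 0.015, 0, 0.0197, 0.0445, 0.0673 and 0% of all genes were called. At an unadjusted p under 0.05 there were 0, 1, 0, 2, 5, 0 and 1 members in the same order, against 2.59, 5.31, 4.51, 4.34, 8.54, 6.16 and 5.63% of all genes, and DESeq2 called 0, 1, 0, 0, 1, 0 and 0. Few genes of any kind passed in these comparisons, so the count says little of the members in particular.

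The member median of KO over WT was -0.19 in RNA-seq, -0.02 in the pellet, 0.22 in fraction 5/6, -0.07 in the low nuclease pellet and 0.04 in its fraction 5/6. In RNA-seq 73 of 81 members lay below 0, and without WT replicate 1, the library with the high member sum, the median was 0.19. In fraction 5/6, 67 of 80 lay above 0, and without the library labelled WT replicate 3 the median was 0.01. The interaction medians were 0.17 for occupancy and -0.22 for enrichment, and became -0.21 without WT RNA replicate 1 and -0.06 without that fraction library.

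Rpl3l was the member with an unadjusted p under 0.05 in the pellet. It was at 17.9, 7.93 and 8.97 CPM in the WT pellet and 62.8, 34.4 and 20.1 CPM in the KO pellet, which did not overlap, a log2 difference of 1.80 (SE 0.52, edgeR unadjusted p 0.0124, adjusted p 0.867). In the low nuclease pellet it was at 14.9, 20.2 and 13.2 CPM in WT and 47.3, 34.9 and 21.5 CPM in KO, a difference of 1.20 (SE 0.35, adjusted p 0.907). In the low nuclease fraction 5/6 it was at 16.7, 8.28 and 5.93 CPM in WT and 73.6, 78.6 and 30.3 CPM in KO, a difference of 2.53 (SE 0.55, adjusted p 0.570). In the standard fraction 5/6 the order was not held, with 11.6, 24.2 and 15.0 CPM in WT and 15.2, 13.8 and 3.03 CPM in KO, and the genotypes overlapped with or without the last WT library, that of low Fmr1. The enrichment interaction of Rpl3l was 2.67 (SE 1.00, adjusted p 0.831). None of these passed the edgeR correction over all genes, and Rpl3l was the member called by DESeq2 in the pellet, at 1.80 (adjusted p 0.0123), and in the low nuclease fraction 5/6, at 2.52 (adjusted p 9.88e-05). The other members with an unadjusted p under 0.05, named after their values were seen, were Rps10 at 0.35 in the low nuclease pellet, and Rps3a1 at -0.39, Rpl18 at 0.23, Rpl36 at 0.34 and Rplp1 at 0.38 in its fraction 5/6.

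Rplp0, Rps6 and Rpl4 overlapped between genotypes in the low nuclease pellet. Rplp0 was at 72.3, 70.1 and 66.2 CPM in the WT pellet and 58.2, 64 and 71.6 CPM in the KO pellet. Rps6 was at 32.4, 26.7 and 26.8 CPM and 22.2, 26.6 and 27.6 CPM, and Rpl4 at 374.8, 377.5 and 345.2 CPM and 330.9, 352.9 and 375.1 CPM.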

How the data were processed

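The authors' per-gene counts of RPF and RNA-seq reads were used as deposited, for 36 libraries on GRCm38. Per the submitters' notes and methods, reads were trimmed with Cutadapt 2.10, and reads of rRNA and other non-coding RNA were removed with Bowtie2 2.3.5. The rest were aligned with STAR 2.7.8a. Duplicates were marked with Picard and removed with SAMtools 1.19.2, and counts came from featureCounts 2.2.0. The handling of reads with several alignments and the strand setting were not given in the sources used here. The deposited peak files give the height of each RPF peak as a signal in reads per interval of a transcript, called by the authors in each library and not scaled between libraries.

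Protein-coding genes were tested with edgeR 4.0.16 in R 4.3.3 (quasi-likelihood, filterByExpr, TMM, Benjamini-Hochberg over all genes tested, threshold 0.05), on only the libraries of the groups compared. The scripts were tested on simulated data. A standard error is the log2 difference over the root of its F. Words of 30 bases were counted over the whole GRCm38 genome on both strands. The labels only number the replicates, and the authors describe the pellet samples as separate preparations. The members, lists and named genes were chosen with earlier results of these data known. Named were, per comparison, the 5 members with the largest rise and fall among called members without overlap, the 5 highest and lowest per kilobase in the WT pellet, and a fixed list of structural groups and paralogs, with any further name chosen after its values were seen. Same-numbered libraries correlated above 0.1 in all 3 pairs only for WT enrichment in the low nuclease preparation (0.12 to 0.21), where the replicate block is therefore read as a pairing found in the data and called 67 members in place of 53.

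Alternatives were DESeq2 1.42.0, library size scaling, TMM without the members, no filter, counts without Cdk8, all biotypes, a replicate block, each library left out, the low nuclease preparation, the most unique members alone and other peak distances. Those without Rpl22, WT RNA replicate 1 or KO pellet replicate 2 were chosen after seeing the data. Counting sets the precision: 1 count was at most 0.233 CPM in an RPF library. Some genes that the rules name are not reported here.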

Additional observations from a re-analysis of the deposited data

How the results depend on the processing

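The low occupancy of the members kept its direction under every alternative over all members, but its depth did not: with low nuclease libraries, whose RNA-seq includes those dominated by 10 genes, 50 members were called in WT (47 lower, median -0.97, with 3 higher, among them Rpl3l and Rpl13, where 27.6% of all genes were lower and 24.9% higher) and 39 in KO (38 lower, median -1.05, with Rpl3l the 1 higher, where 12.8% of all genes were lower and 16% higher). With the 5 most unique members alone, calls were 2 in WT and 3 in KO, in fraction 5/6 likewise 2 and 3, and the KO fraction 5/6 median turned to 0.24. KO enrichment in the standard preparation gave 29 calls by DESeq2, 0 by library size, 4 without a filter, 2 without Cdk8, 1 with a replicate block (Rpl3l, higher) and 0 to 12 leaving out a library, and WT enrichment gave 0 to 6. In the low nuclease preparation, leaving out a library gave 6 to 31 calls in WT and 0 to 55 in KO, and the replicate block 67 and 63. Standard against low nuclease pellets gave 78 calls by library size, 8 with the replicate block and 6 to 26 leaving out a library in WT, and 22 by DESeq2, 75 by library size (median -1.60), 3 with the block and 3 to 13 in KO. KO against WT gave 1 call in the pellet by DESeq2 and by library size, and 1 in the low nuclease fraction 5/6 by DESeq2, each time Rpl3l. Peak positions shared at 0 nt were 1 and 0, and at 12 nt 61 and 32. Library size also reversed Rpl8 in KO fraction 5/6 occupancy (-1.39) and, for standard against low nuclease, Rps9 (-0.45 in WT, -0.63 in KO), Rps24 (-0.49, -0.76), Rpl18 (-0.71) and Rpl37 (-0.94) in WT, and Rpl24 (-0.66) and Rps18 (-0.96) in KO, and low nuclease libraries reversed KO Rpl22 occupancy (-0.72). The cause was not tested. By library size the median of all genes was -2.14 in WT and -2.33 in KO occupancy, and the members lay 2.41 below it in WT.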
